A study of Caenorhabditis elegans with 35 samples.

Results

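The C-type lectin genes of Caenorhabditis elegans, named clec followed by a number, were described across 35 whole-animal RNA arrays. Members were taken by gene symbol, which gave 234 probe sets for 225 genes out of 20806 probe sets on the array. Of these, 8 repeated the values of another member on all arrays and were counted once, which left 226 members out of 18869 distinct probe sets. Only clec-225 was read by 2 probe sets with different values. The reference gene table (WBcel235) lists 264 clec genes, 239 of them protein coding, so the array does not read the whole family.

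The animals were L3 larvae, lysed whole. The groups were F4 and F5 animals homozygous for a wdr-5 mutation (called mutants), F4 and F5 animals of wild-type genotype with mutant ancestors (+/+ from wdr-5), and F4 and F5 animals of wild-type genotype and ancestry (+/+ from +/+). Each group had 6 arrays, 3 from each of 2 birth days, except F5 +/+ from wdr-5, which had 2 arrays from birth day 1 and 3 from birth day 2. The labels name neither the wdr-5 allele nor whether arrays of a group came from separate cultures, so p-values measure only the spread between these arrays, which may be technical. The study asked whether loss of a component of a complex that methylates histone H3 leaves effects in wild-type descendants.

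C-type lectin domains are protein folds best known for binding sugars, often with the help of calcium. Nematodes carry a greatly expanded family of secreted and membrane proteins with this fold. Many of its members are made in the intestine, and expression of many changes when worms meet pathogenic bacteria or fungi, so that the family is commonly read as an immune effector class. The binding partners of most members are not known.

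The deposited values were normalized by robust multi-array averaging, and are read here as log2 intensities from their range. A difference of 1 is then a doubling. The wdr-5.1 probe set read 4.01, 4.92 and 5.91 (lowest, median and highest) in F4 mutants and 4.32, 4.75 and 5.17 in F5 mutants, against 8.30 to 8.88 on the 23 arrays of the other groups. This checks the genotype of each array and not its ancestry, generation or birth day. Across probe sets, replicate arrays from 1 day had correlations of 0.973 to 0.997 (34 pairs). Array 5th percentiles were 3.04 to 3.23 for birth day 1, against 4.12 to 4.21 for birth day 2, so levels are compared within a day. A value under the 25th percentile of its array is called dim below. Since whole animals were measured, fewer cells of a type and less RNA per cell cannot be told apart.

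Most C-type lectin probe sets were weak on these arrays. The median member stood at the 28.3rd percentile of its arrays. On average over arrays, 91 members were dim, 29 of them on all arrays, 89 lay between the 25th and the 50th percentile and 46 lay above the 50th. Only 12 reached the 90th percentile. The brightest probe set was that of clec-63, with a mean of 12.40 over all arrays, followed by clec-47 at 10.83 and clec-50 at 10.75. The next were clec-87, clec-81, clec-83, clec-265, clec-1, clec-150 and clec-56, with means from 9.85 down to 8.89. These are probe set levels on a log2 scale and not transcript amounts, since probe sets differ in response. By chromosome, 81 of the genes lie on V, 47 on II, 45 on IV, 32 on I, 16 on III and 3 on X, and 1 was not placed. Of the genes, 100 stand in 35 runs of direct neighbours with no other protein-coding gene between them, the longest of 7 genes.

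In F4 mutants, 13 members rose and 14 fell against F4 +/+ from +/+ (limma, adjusted p under 0.05 over all probe sets), beside 4.83% of all distinct probe sets that rose and 5.28% that fell. After quantile normalization over all arrays the split in F4 was 15 and 10. In F5 mutants, 21 rose and 30 fell against F5 +/+ from +/+, beside 17.2% and 15.3% of all. In either direction this is 11.9% of the members in F4 and 22.6% in F5, against 10.1% and 32.5% of all probe sets. Among probe sets above the 50th percentile on average, 21.7% of the members and 14.2% of all were called in F4, and 56.5% and 46.8% in F5. The median difference of the members was -0.03 in F4 and -0.07 in F5, against -0.02 and -0.03 over all.

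The same 6 members rose in mutants of both generations (clec-1, clec-3, clec-47, clec-52, clec-54 and clec-145) and the same 8 fell (clec-10, clec-64, clec-67, clec-86, clec-143, clec-162, clec-172 and clec-184). They are 51.9% of the members called in F4 and 27.5% of those called in F5. Of all distinct probe sets, 680 rose and 638 fell in both generations, of 1907 called in F4 and 6127 in F5. As shares of those tested, 2.65% of the members rose and 3.54% fell in both, beside 3.6% and 3.38% of all. No member was called in opposite directions. All 14 had one sign on both birth days of both generations, and 1 of them, clec-162, was dim on average.

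The largest shared rise was that of clec-52, a gene known to be induced by Staphylococcus aureus. It read 8.25, 8.54 and 8.41 on birth day 1 and 8.73, 8.46 and 8.61 on birth day 2 in F4 mutants, against 7.31, 7.60 and 7.56 and then 6.77, 6.83 and 7.01 in F4 +/+ from +/+. In F5 mutants it read 8.45, 8.95 and 8.79 and then 8.39, 7.98 and 8.93, against 7.30, 7.39 and 7.33 and then 6.85, 6.73 and 6.86 in F5 +/+ from +/+. Every mutant array was above every wild-type array of its generation, with differences of 1.32 ± 0.14 (SE, adjusted p = 9.56e-08) in F4 and 1.51 ± 0.14 (adjusted p = 3.27e-09) in F5.

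The rise of clec-47 came next. Its lowest, median and highest values were 10.82, 11.32 and 11.66 in F4 mutants, against 10.24, 10.55 and 10.99 in F4 +/+ from +/+. F5 mutants held between 11.31 and 11.56, against 10.49 to 10.84 in F5 +/+ from +/+. The differences were 0.76 ± 0.11 in F4 (adjusted p = 1.63e-05) and 0.79 ± 0.11 in F5 (adjusted p = 3.66e-06), with no overlap on either birth day in either generation.

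The rise of clec-54 was 0.67 ± 0.13 in F4 mutants (adjusted p = 0.00118) and 0.56 ± 0.13 in F5 mutants (adjusted p = 0.00211). All 6 F4 mutant arrays stood above the wild-type arrays of their day, and 5 of 6 did so in F5. The probe set of clec-3 differed by 0.51 ± 0.10 and 0.45 ± 0.10 in the same comparisons, and 6 of 6 mutant arrays stood above in each generation. The rises of clec-1 (0.35 and 0.32) and clec-145 (0.34 and 0.29) were smaller.

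Among the shared falls, clec-67, an infection-responsive gene often used as an immune readout, moved most in F4. It read 5.72, 5.14 and 5.66 on birth day 1 and 4.79, 4.81 and 4.85 on birth day 2 in F4 mutants, against 6.87, 6.46 and 6.58 and then 5.79, 5.74 and 5.84 in F4 +/+ from +/+. The difference was -1.05 ± 0.14 in F4 (adjusted p = 2.68e-06) and -0.44 ± 0.14 in F5 (adjusted p = 0.0123), with all 6 mutant arrays below the wild-type arrays of their day each time. The difference between the generations was -0.61 ± 0.19 and did not pass (adjusted p = 0.153).

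In F5 the order was different, with clec-86 changed most among the falling members. F5 mutants read 5.52, 5.70 and 5.75 and then 5.24, 5.24 and 5.52 on the birth days for clec-86, against 6.69, 6.83 and 6.46 and then 5.89, 5.74 and 6.23 in F5 +/+ from +/+. The difference was -0.81 ± 0.12 in F5 (adjusted p = 9.66e-06) and -0.64 ± 0.12 in F4 (adjusted p = 0.000595). In F4 most of it came from birth day 1, where it was -1.04, against -0.25 on birth day 2. The falls of clec-10 (-0.56 in F4 and -0.49 in F5) and clec-172 (-0.54 in each) were close in size in both generations. Those of clec-64 were -0.42 and -0.56, of clec-184 -0.41 and -0.27, and of clec-143 -0.25 and -0.20. The F4 call of clec-64 was lost without F4 mutant replicate 2 or 3 or F4 +/+ from +/+ replicate 1 or 2 (highest adjusted p = 0.0722).

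**Figure D1:**
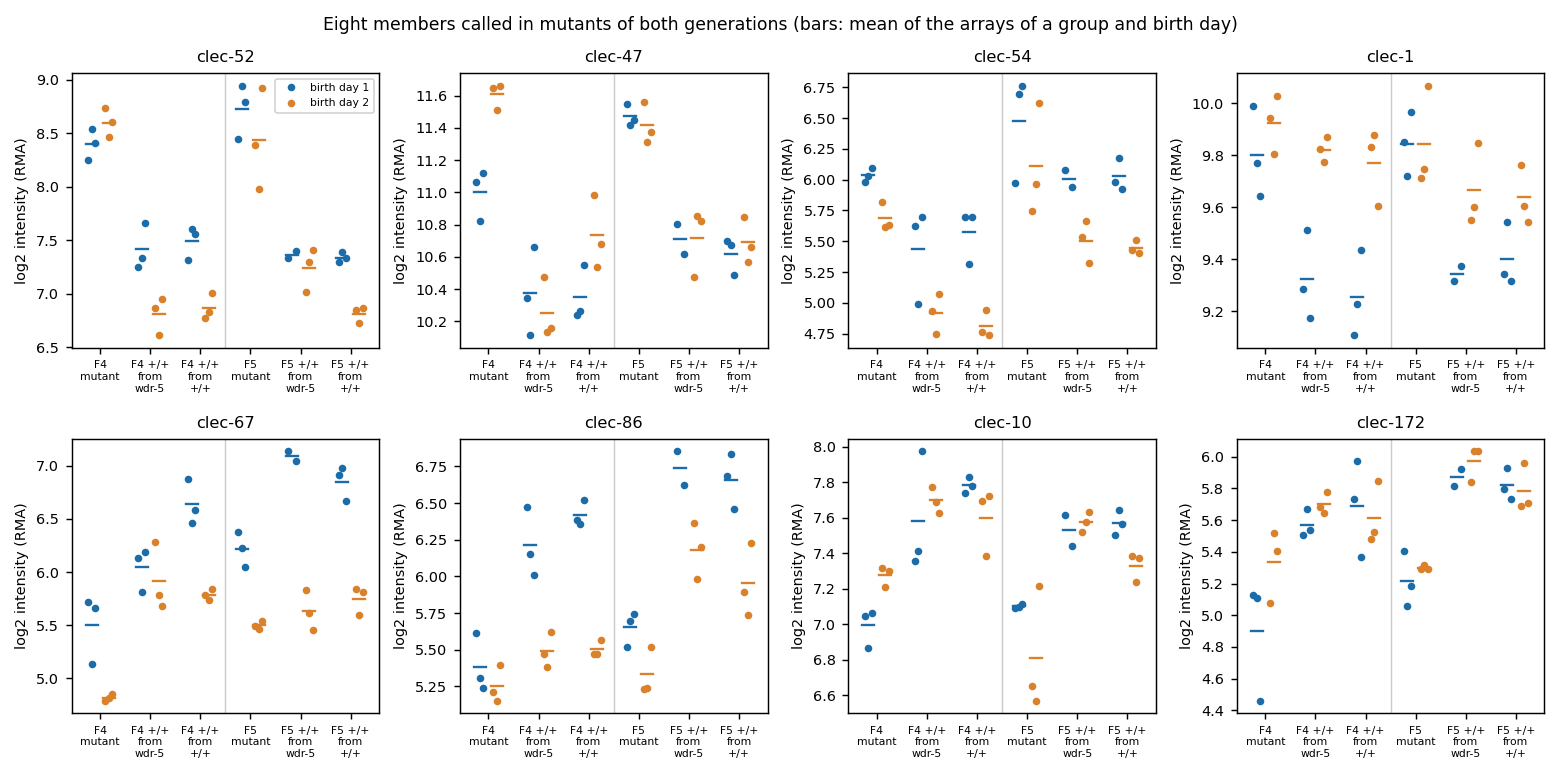
Log2 intensity (RMA) on every array for 8 members called in mutants of both generations, by group, with points for arrays, bars for the mean of a group and birth day, blue for birth day 1 and orange for birth day 2. For clec-52 every mutant array (7.98 to 8.95) lies above every array of the other groups (6.61 to 7.66), and for clec-67 each mutant array lies below the +/+ from +/+ arrays of its generation and day.

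**Figure D2:**
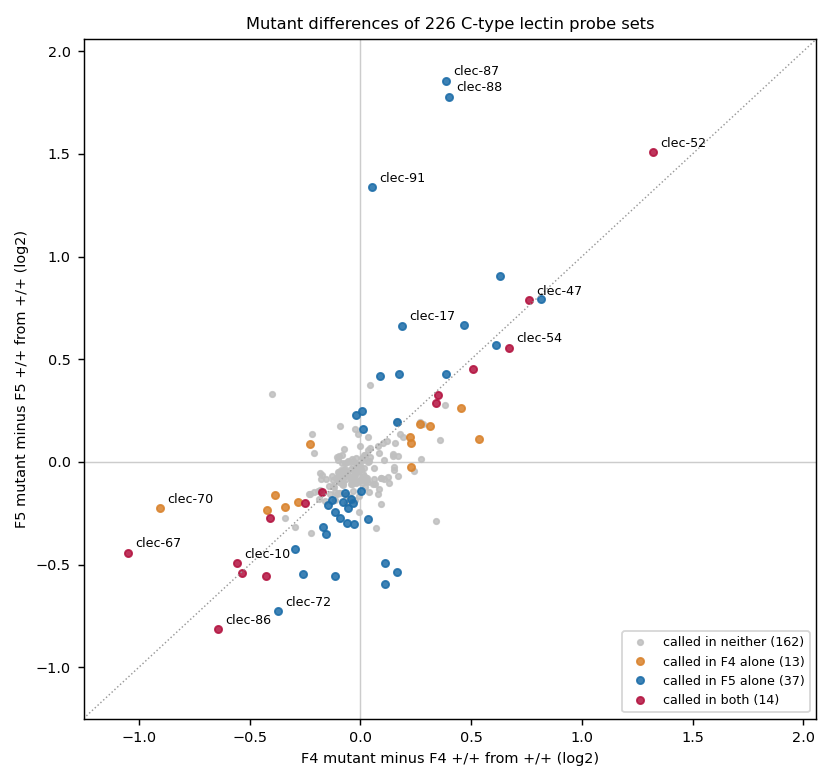
Difference from +/+ from +/+ (log2) of F4 mutants on the x axis and of F5 mutants on the y axis, 1 point per member (226), coloured by the call, with a dotted line where both are equal. Of the points, 14 are called in both generations, and clec-87, clec-88 and clec-91 stand far above the line.

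Other members were called in 1 generation. In F4 mutants the largest such fall was clec-70, a neighbour of clec-71 on chromosome IV. Its values were 3.90, 4.46 and 3.61 and then 4.65, 4.65 and 4.53 on the birth days, against 5.12, 6.17 and 4.91 and then 4.95, 4.95 and 5.14 in F4 +/+ from +/+ (difference -0.91 ± 0.23, adjusted p = 0.0106). It was below the wild-type arrays of its day on 6 of 6 mutant arrays. The fall of clec-81, one of the brighter members, was -0.42 ± 0.12 (adjusted p = 0.0267), with 3 of 6 arrays below. Its call was lost without F4 mutant replicate 3 or F4 +/+ from +/+ replicate 1, 2 or 5 (highest adjusted p = 0.104). Among rises, clec-7 differed by 0.46 ± 0.14 (adjusted p = 0.0303). That call was lost without F4 mutant replicate 3 or 4 or F4 +/+ from +/+ replicate 4, 5 or 6, with the difference at 0.34 (adjusted p = 0.116) without F4 mutant replicate 3.

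The neighbours clec-136, clec-137, clec-138 and clec-139 form a run on chromosome II, and 3 of the 4 rose in F4 mutants, against none in F5. None of them passed the test of F4 against F5, and they are weak. The run was named from 35 after its values were seen, and most of the 35 had no member that rose in F4 mutants. On birth day 1 clec-137 read 3.49, 3.69 and 4.55 in F4 mutants, against 3.19, 3.06 and 3.11 in F4 +/+ from +/+. It was dim on 3 of 6 mutant arrays and on all 6 wild-type arrays, so its fitted difference (0.53 ± 0.12, adjusted p = 0.0034) rests on values near the floor and has no firm size. The differences of clec-136 and clec-139 were 0.23 each, and clec-136 was dim on 5 of 6 mutant arrays and on all 6 wild-type arrays. Further rises (clec-152, clec-221 and clec-236) and falls (clec-28, clec-134, clec-210 and clec-257) of F4 mutants lay between 0.23 and 0.39 in size. The call of clec-152 was lost without F4 mutant replicate 1, 2 or 3 or F4 +/+ from +/+ replicate 2 or 3 (highest adjusted p = 0.0684). That of clec-221 was lost without F4 mutant replicate 1, 2 or 3 or F4 +/+ from +/+ replicate 1 or 2 (highest adjusted p = 0.129), and that of clec-257 without F4 mutant replicate 3 or F4 +/+ from +/+ replicate 1. Without F4 mutant replicate 3 the F4 count was 16. Of the 27 called members, 25 also passed on birth day 1 alone and 8 on birth day 2 alone.

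In F5 mutants the calls included bright members. The fall of clec-63, whose probe set was the brightest, was -0.27 ± 0.06 (adjusted p = 0.000717), with 12.07, 12.38 and 12.25 and then 12.31, 12.34 and 12.46 in F5 mutants against 12.50, 12.45 and 12.63 and then 12.54, 12.72 and 12.60 in F5 +/+ from +/+. Every F5 mutant array was below the wild-type arrays of its day. The same held for clec-186 (-0.56 ± 0.11, adjusted p = 0.000248), clec-180 (-0.54 ± 0.15, adjusted p = 0.00575) and both probe sets of clec-225 (-0.59 ± 0.15 and -0.49 ± 0.12). For clec-72 the difference was -0.73 ± 0.19 (adjusted p = 0.00465), but its F5 mutant arrays were spread from 5.28 to 6.58, against 6.38 to 6.87 in F5 +/+ from +/+. The falls of clec-173 (-0.55), clec-265 (-0.43) and clec-56 (-0.30) also passed. Of the 51 called members, 10 were dim on average.

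With no overlap on either birth day as the criterion, 8 members rose and 7 fell in F4 mutants, beside 2.34% and 2.89% of all probe sets. In F5 mutants 5 rose and 16 fell, beside 8.53% and 6.8%. The mutant difference itself did not pass the test of F4 against F5 for any member (0 at adjusted p under 0.05, 23 at an unadjusted p under 0.05, limma), beside 0.0106% of all probe sets. On birth day 2 alone the F4 and F5 mutant differences differed for 29 members, 24 of them higher in F4 (8.59% of all probe sets) and 5 lower (11.3%). The second probe set of clec-225 (0.60 ± 0.17), clec-225 (0.70 ± 0.21) and clec-180 (0.70 ± 0.21) had the smallest p of the test over both days, with adjusted p from 0.127 to 0.131.

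The largest rises in F5 mutants were those of clec-87 (1.86 ± 0.41, adjusted p = 0.000896), clec-88 (1.78 ± 0.42, adjusted p = 0.0016) and clec-91 (1.34 ± 0.45, adjusted p = 0.0224). For clec-88, F5 mutants read 9.47, 7.48 and 8.08 on birth day 1 and 8.81, 9.51 and 7.51 on birth day 2, against 6.77, 6.51 and 6.58 and then 7.13, 6.62 and 6.59 in F5 +/+ from +/+. No mutant array overlapped the wild-type arrays of its day for clec-87 or clec-88, and 4 of 6 stood above for clec-91. The mutant arrays were themselves spread, from 9.30 to 11.71 for clec-87 and from 6.38 to 8.90 for clec-91. The call of clec-91 was lost without F5 mutant replicate 1 or 5 (highest adjusted p = 0.0776). These 3 members, with clec-79 and clec-123, had the largest spread within a group and day of the members.

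In F4 the same 3 members moved in opposite directions on the birth days. For clec-88, F4 mutants read 9.10, 9.96 and 9.48 on birth day 1, against 7.52, 6.96 and 7.51 in F4 +/+ from +/+, and on birth day 2 the mutants read 7.38, 8.16 and 6.86, against 9.29, 8.35 and 8.91. The day 2 difference minus the day 1 difference was -3.56 ± 0.57 (adjusted p = 5.06e-05), with -3.31 ± 0.59 for clec-87 and -3.61 ± 0.66 for clec-91. For clec-88 the F4 +/+ from wdr-5 arrays lay between the other F4 groups on birth day 1 (7.77 to 8.72), and on birth day 2 (7.74 to 7.80) they lay below wild type and within the mutants' range.

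Smaller versions of the same pattern were seen for clec-79, clec-151, clec-123 and clec-73. Their F4 mutant differences were 1.90, 1.62, 1.29 and 1.39 on birth day 1 and -0.27, -0.35, -0.35 and -0.16 on birth day 2. In F5 mutants these members rose by 0.79, 0.91, 0.66 and 0.57, with adjusted p from 0.00902 to 0.043. The calls of clec-73, clec-79 and clec-123 were each lost without F5 mutant replicate 1, 4 or 5. They were also lost without any 1 of the 6 F5 +/+ from +/+ arrays for clec-73, without F5 +/+ from +/+ replicate 1 or 5 for clec-79 and without replicate 2 for clec-123 (highest adjusted p = 0.154). For each, 5 of 6 F5 mutant arrays stood above the wild-type arrays of their day and replicate 6 of birth day 2 stood below.

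Lists of markers of the germline, of sperm and of the adult intestine moved on average with these members. For 25 germline and oocyte genes the mean per array was 9.04 to 9.37 and 7.97 to 8.79 on the birth days in F4 mutants, against 7.88 to 8.22 and then 8.92 to 9.39 in F4 +/+ from +/+. In F5 mutants it was 8.07 to 9.21 and 8.23 to 9.48, against 7.59 to 7.75 and then 7.88 to 8.04 in F5 +/+ from +/+. All 25 were measured, and the dimmest of them, gld-1, had a mean of 6.65, at the 67.3rd percentile. Not all of the 25 moved. In F5 mutants perm-2 averaged 8.81, against 6.80 in F5 +/+ from +/+, while fbf-1 averaged 7.11 against 7.14 and fbf-2 6.89 against 6.96. The 6 vitellogenins, which encode yolk made by adult intestine, averaged 10.60 to 11.29 and 8.05 to 10.57 on the birth days in F4 mutants, against 8.62 to 9.39 and then 10.31 to 11.47 in F4 +/+ from +/+. Though the stage is given as L3, vit-3 had a mean of 10.31 over all arrays, at the 94.6th percentile. Whether the samples held later stages was not tested. The mean of 23 measured sperm genes (of 40) was 8.17 to 8.34 and 7.64 to 7.86 in F4 mutants, against 7.14 to 7.54 and then 8.08 to 8.22 in F4 +/+ from +/+. In all gene lists, probe sets with values identical to those of a differently named gene were left out. Genes read only by such probe sets do not count as measured. In F5 the vitellogenin means were 8.09 to 11.17 and then 9.49 to 11.40 in mutants, against at most 8.54 and then 6.98 to 9.58 in +/+ from +/+, which overlap on both days. The F5 sperm means were 7.64 to 8.28 and then 7.42 to 8.44 in mutants, against at most 7.35 and then 7.57 to 7.69 in +/+ from +/+, with mutant replicate 6 below all F5 wild-type arrays of birth day 2. The part of these cells and stages in the changes of the members was not tested.

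**Figure D3:**
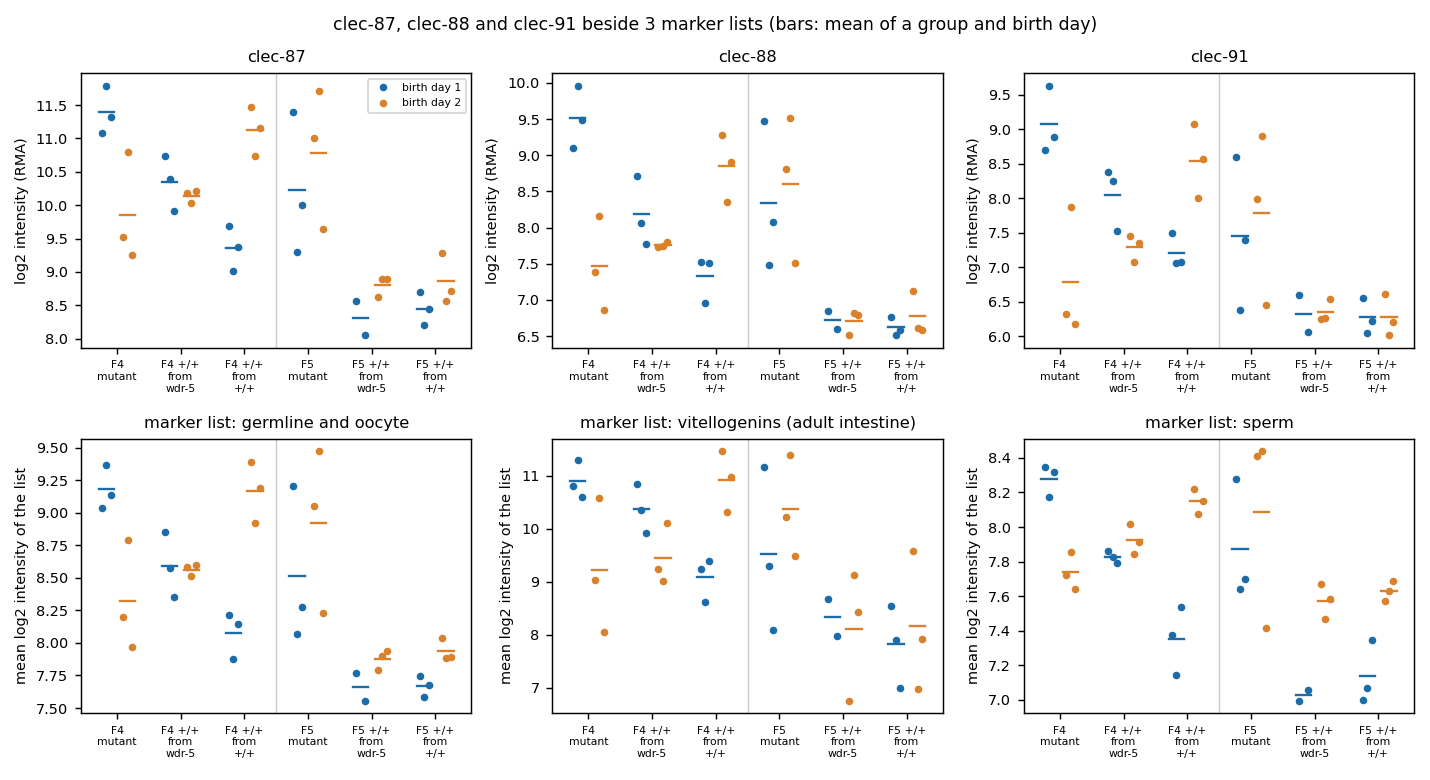
Upper row, log2 intensity (RMA) of clec-87, clec-88 and clec-91, and lower row, the mean log2 intensity of 3 marker lists, on every array by group (points for arrays, bars for the mean of a group and birth day, blue for birth day 1 and orange for birth day 2). In all 6 panels every F4 mutant array of birth day 1 lies above the F4 +/+ from +/+ arrays of that day, and on birth day 2 the F4 mutant mean lies below theirs.

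Beyond these members, the F4 mutant difference of many lectins depended on the birth day. The day 2 difference minus the day 1 difference was positive for 53 members and negative for 12 (limma, adjusted p under 0.05), beside 17.5% and 15.1% of all probe sets. Of the 53, 42 were below F4 +/+ from +/+ on birth day 1 and above on birth day 2, 9 were below on both days, and 2, clec-52 and clec-227, were above on both. The median of members above the 50th percentile was -0.32 on birth day 1 and 0.25 on birth day 2, against -0.02 and -0.01 over all probe sets above the 50th. On birth day 1 alone 23 members rose and 48 fell in F4 mutants, beside 14.3% and 15.8% of all. On birth day 2 alone 17 rose and 6 fell, beside 6.51% and 5.36%.

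The strongest of these was clec-4, an infection-responsive lectin gene. F4 mutants read 8.37, 7.74 and 8.42 on birth day 1 and 9.20, 8.93 and 9.05 on birth day 2, against 9.03, 8.87 and 8.73 and then 7.64, 7.81 and 7.49 in F4 +/+ from +/+. The mutant arrays were all below wild type on birth day 1 and all above it on birth day 2, and the change between days was 2.11 ± 0.25 (adjusted p = 6.96e-06).

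For clec-5 the F4 mutants read 8.33, 8.55 and 8.35 and then 9.36, 9.25 and 9.42 on the birth days, against 8.68, 8.92 and 8.65 and then 8.53, 8.11 and 8.30 in F4 +/+ from +/+. The change between days was 1.37 ± 0.20 (adjusted p = 2.19e-05), and the groups overlapped on neither day. That of clec-66 was 1.20 ± 0.18 (adjusted p = 3.02e-05) and that of clec-186 was 0.78 ± 0.13 (adjusted p = 9.87e-05), again with opposite signs on the days. Others over 1 were clec-72 (1.33), clec-17 (1.32), clec-265 (1.13), clec-180 (1.04), clec-225 (1.03) and clec-70 (1.01).

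The neighbours clec-62 to clec-66 on chromosome II include the brightest member, and 4 of the 5 had a positive change between days. It was 0.73 ± 0.19 for clec-62, 0.32 ± 0.11 for clec-63, 0.83 ± 0.20 for clec-64 and 1.20 for clec-66. The change of clec-65 was 0.52 ± 0.21 (adjusted p = 0.0573), with 7.68 to 8.10 and then 7.95 to 8.27 over the birth days in F4 mutants, against 8.10 to 8.37 and then 7.64 to 7.95 in F4 +/+ from +/+. In the run of clec-54, clec-55, clec-56, clec-57 and clec-227 on chromosome V, 3 of 5 had a positive change. Both runs were named after their values were seen.

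**Figure D4:**
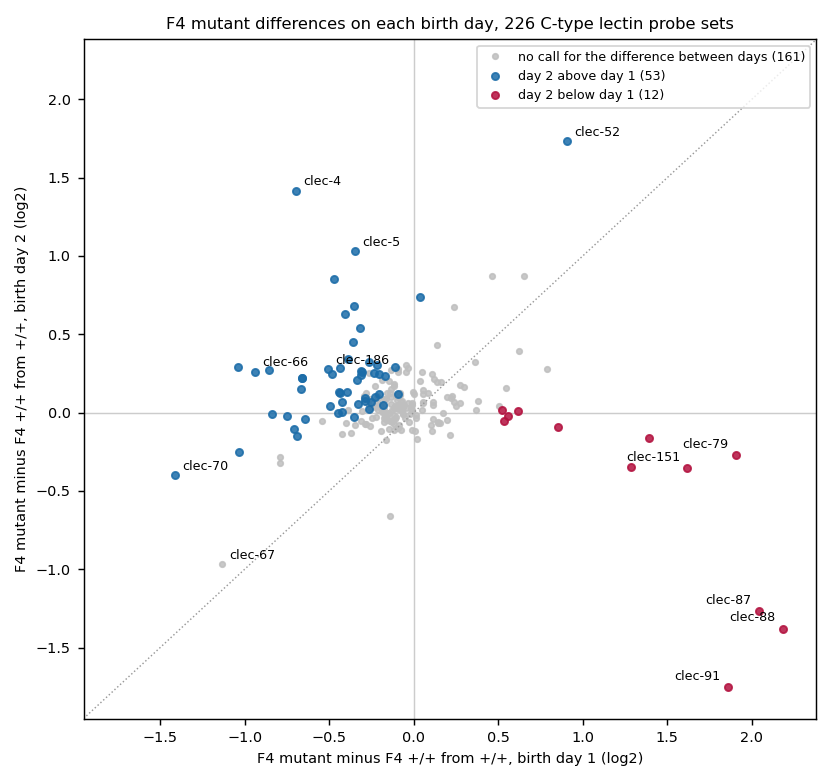
F4 mutant minus F4 +/+ from +/+ (log2) on birth day 1 on the x axis and on birth day 2 on the y axis, 1 point per member (226), coloured by the test of the difference between days, with a dotted line where both are equal. The 53 members with a positive change lie above the line, most of them left of 0, and the 12 with a negative change lie below it.

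Markers of the intestine, of moulting, of neurons and of coelomocytes were also lower in F4 mutants on birth day 1 and higher on birth day 2 on average. The 14 intestinal genes, all measured, averaged 9.29 to 9.48 and 9.73 to 9.77 per array on the birth days in F4 mutants, against 9.51 to 9.66 and then 9.51 to 9.65 in F4 +/+ from +/+. The 24 moulting cycle and hypodermis genes, all measured, averaged 9.26 to 9.43 and 9.67 to 9.82 in F4 mutants, against 9.65 to 9.72 and then 9.30 to 9.68 in F4 +/+ from +/+. The 21 neuron genes, all measured and 3 of them dim on average, averaged 6.09 to 6.23 and 6.42 to 6.52 in F4 mutants, against 6.32 to 6.43 and then 6.19 to 6.31. The 4 coelomocyte genes, all measured, averaged 5.65 to 5.70 and 5.77 to 5.86 in F4 mutants, against 5.93 to 6.05 and then 5.37 to 5.62. Pharynx and body wall muscle markers were not higher on birth day 2. The 14 measured pharynx genes (of 16) averaged 6.77 and 6.86 in F4 mutants, against 7.29 and then 6.86. The 12 body wall muscle genes averaged 9.91 and 10.05, against 10.15 and then 10.13. Genes of the intestinal list differed in direction. Over both days lys-7 read 10.05 in F4 mutants against 8.83 in F4 +/+ from +/+, and asp-1 13.30 against 13.62. The part of these tissues in the changes of the lectins was not tested.

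**Figure D5:**
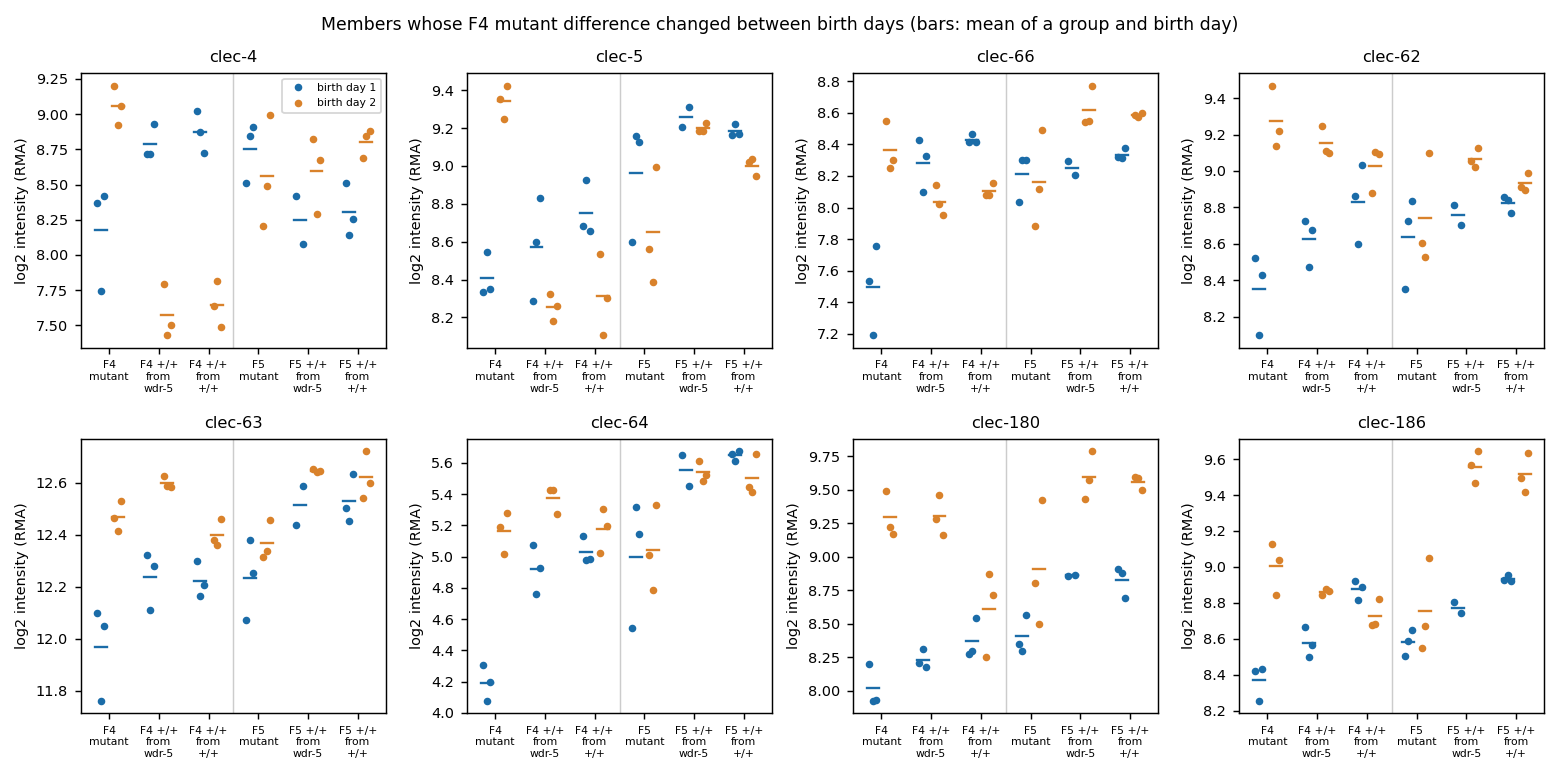
Log2 intensity (RMA) on every array for 8 members whose F4 mutant difference changed between birth days, by group (points for arrays, bars for the mean of a group and birth day, blue for birth day 1 and orange for birth day 2). For clec-4 the F4 mutants lie below F4 +/+ from +/+ on birth day 1 (7.74 to 8.42 against 8.73 to 9.03) and above it on birth day 2 (8.93 to 9.20 against 7.49 to 7.81).

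In F5 the mutant difference did not change between birth days for any member at the threshold (0 called, 16 at an unadjusted p under 0.05, limma), beside 0.0795% of all probe sets in either direction, 0.0424% with a positive and 0.0371% with a negative change. The smallest p there was that of clec-186, at -0.41 ± 0.13 (adjusted p = 0.304). By day, 17 members rose and 16 fell on birth day 1 alone, beside 11.6% and 9.73% of all probe sets, and 12 rose and 26 fell on birth day 2 alone, beside 11.4% and 8.73%.

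In wild-type descendants of mutants, no C-type lectin was called against +/+ from +/+ in either generation (limma), beside 0.0% of all probe sets. At an unadjusted p under 0.05 there were 9 members lower and none higher in F4, and 2 higher and none lower in F5. The F4 count joins days that differed. On birth day 1 alone 6 members were higher and 38 lower at that p, and on birth day 2 alone 8 were higher and 5 lower. None was called on either day, beside 0.0265% higher and 0.0106% lower of all probe sets on birth day 1 and 0.0212% and 0.0265% on birth day 2. The median F4 difference of the members on birth day 1 was -0.12, against -0.05 over all. The smallest p in F4 was that of clec-184, at -0.25 ± 0.08 (adjusted p = 0.999), and came from birth day 1, with 4.65, 4.81 and 4.83 in F4 +/+ from wdr-5 against 5.31, 5.43 and 5.16 in F4 +/+ from +/+. On birth day 2 they read 4.53, 4.69 and 4.72, against 4.62, 4.70 and 4.52. In F5 the smallest was clec-145, at 0.22 ± 0.08 (adjusted p = 1).

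The member that rose most in mutants, clec-52, read 7.25, 7.34 and 7.66 and then 6.87, 6.61 and 6.95 on the birth days in F4 +/+ from wdr-5, against 7.31, 7.60 and 7.56 and then 6.77, 6.83 and 7.01 in F4 +/+ from +/+. These overlapped on both days. In F5 +/+ from wdr-5 it read 7.33 and 7.40 and then 7.02, 7.29 and 7.41, against 7.30, 7.39 and 7.33 and then 6.85, 6.73 and 6.86 in F5 +/+ from +/+, with all 3 arrays above on birth day 2. The difference of F4 +/+ from wdr-5 changed between birth days for clec-184 (0.57 ± 0.12, adjusted p = 0.0135) and clec-176 (0.39 ± 0.10, adjusted p = 0.0328), 2 members in all (1.83% of all probe sets in either direction), both with a positive change beside 0.959% of all probe sets, and none with a negative one beside 0.869%. Leaving out 1 array ended the call of clec-176 for 6 arrays and that of clec-184 for 2, and gave 0 to 14 called members. In F5 no member changed between days (0 called, 5 at an unadjusted p under 0.05), beside 0.0053%. The difference of descendants did not differ between F4 and F5 for any member (0 called, 7 at an unadjusted p under 0.05), beside 0.0% of all.

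Against their generation's +/+ from wdr-5, 18 members rose and 10 fell in F4 mutants, beside 5.9% and 5.54% of all probe sets. In F5 mutants 45 members changed in either direction, beside 29.6% of all probe sets. These comparisons use the mutant arrays of the ones above. In F4, clec-52 differed by 1.39 ± 0.14, clec-47 by 0.99 ± 0.11, clec-54 by 0.69 ± 0.13 and clec-7 by 0.65 ± 0.14, and clec-137, dim on all 6 arrays of +/+ from wdr-5, by 0.62 ± 0.12. The falls in F4 mutants were led by clec-70 (-0.97 ± 0.23, with low mutant values as above), clec-67 (-0.82 ± 0.14), clec-229 (-0.66 ± 0.18), clec-230 (-0.55 ± 0.16) and clec-86 (-0.53 ± 0.12). In F5, clec-87 (1.95 ± 0.43), clec-88 (1.78 ± 0.44), clec-91 (1.29 ± 0.48), clec-52 (1.26 ± 0.15) and clec-151 (1.01 ± 0.28) rose most. That call of clec-91 was lost without F5 mutant replicate 1, 4 or 5 or F5 +/+ from wdr-5 replicate 2, 4, 5 or 6 (highest adjusted p = 0.126). In F4 the call of clec-230 was lost without F4 +/+ from wdr-5 replicate 6. The largest falls in F5 mutants were clec-86 (-0.96 ± 0.13), clec-72 (-0.82 ± 0.20), clec-172 (-0.67 ± 0.12), clec-173 (-0.64 ± 0.17) and clec-10 (-0.62 ± 0.11).

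Levels also differed between the generations within a lineage. In +/+ from +/+, 26 members were higher and 6 lower in F5 than in F4, beside 16.3% and 5.02% of all probe sets. In +/+ from wdr-5, 30 were higher and 7 lower, beside 19.7% and 4.77%, and in mutants 19 were higher and 16 lower, beside 13.5% and 3.85%. In mutants, birth day 1 alone gave 50 higher and 12 lower, beside 25.2% and 7.55% of all probe sets. Birth day 2 alone gave 4 higher and 67 lower, beside 9.13% and 11.9%. The split over both days also depended on the scaling. After quantile normalization over all arrays it was 20 and 15, 20 and 10, and 10 and 42 in the same order.

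Among single members, clec-41 was higher in F5 than in F4 in all lineages. It read 9.27, 9.23 and 9.04 and then 9.29, 8.98 and 9.35 on the birth days in F5 +/+ from +/+, against 8.19, 7.90 and 8.32 and then 8.37, 8.32 and 8.35 in F4 +/+ from +/+ (difference 0.95 ± 0.14, adjusted p = 3.64e-05). It differed by 0.99 ± 0.15 in +/+ from wdr-5 and by 0.56 ± 0.14 in mutants. The second largest rise in +/+ from +/+ was that of clec-225 (0.81 ± 0.15), followed by clec-180 (0.70 ± 0.15).

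The member clec-229 was lower in F5, at 5.00, 5.27 and 4.69 and then 4.95, 5.26 and 5.11 in F5 +/+ from +/+, against 6.22, 5.64 and 6.54 and then 6.08, 6.57 and 6.15 in F4 +/+ from +/+ (difference -1.15 ± 0.18, adjusted p = 3.64e-05). It was also lower in F5 +/+ from wdr-5 (-1.11 ± 0.18). The members clec-87, clec-88 and clec-91 were lower in F5 than in F4 animals of wild-type genotype, with differences of -1.59 ± 0.41, -1.39 ± 0.42 and -1.60 ± 0.45 in +/+ from +/+ and of -1.69, -1.27 and -1.34 in +/+ from wdr-5. In +/+ from +/+ the call of clec-88 was lost without F4 replicate 4 or 6 and that of clec-91 without F4 replicate 4. In +/+ from wdr-5 that of clec-88 was lost without F4 replicate 1 or F5 replicate 2, 4, 5 or 6, and that of clec-91 without F4 replicate 1, 2, 4 or 6 or F5 replicate 2, 4, 5 or 6 (highest adjusted p = 0.082). Between F5 and F4 mutants, clec-67 (0.69 ± 0.14), clec-17 (0.68 ± 0.20) and clec-227 (0.58 ± 0.14) were higher in F5, and clec-197 (-0.47 ± 0.10) and clec-137 (-0.45 ± 0.12) were lower. The call of clec-17 was lost without F5 mutant replicate 3 or 6. Generation and anything else that differed between the F4 and F5 preparations cannot be told apart.

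Other immune lists are read against all probe sets, of which 4.83% rose and 5.28% fell in F4 mutants and 17.2% and 15.3% in F5 mutants. Of 60 measured lysozymes, saposin-like proteins and antimicrobial peptides, 8 rose and 5 fell in F4 mutants and 9 rose and 10 fell in F5 mutants. The lysozyme gene lys-10 rose by 3.37 ± 0.13 in F4 and 3.31 ± 0.13 in F5 and the invertebrate-type lysozyme ilys-3 by 1.22 ± 0.16 and 1.32 ± 0.16, while the saposin-like spp-4 fell (-0.93 ± 0.09 and -0.74 ± 0.09). Of 25 measured infection response genes, ilys-3 among them, 4 rose and 8 fell in F4 mutants and 6 rose and 10 fell in F5 mutants. The infection response gene irg-4 differed by -1.59 ± 0.15 and -1.96 ± 0.15 and dod-17 by -0.91 ± 0.12 and -1.12 ± 0.12, and the aspartyl protease gene asp-12 by -2.36 ± 0.20 in F4. The median difference of these 25 genes was -0.03 in F4 and -0.12 in F5, against -0.02 and -0.03 over all probe sets.

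Of 44 measured immune regulators, 5 rose and none fell in F4 mutants, and 2 rose and 11 fell in F5 mutants. None of the 44 passed the test of F4 against F5 of the mutant difference. In F4 the transcription factor gene pqm-1 rose by 0.78 ± 0.13 and the p38 kinase gene pmk-1 by 0.42 ± 0.11. In F5 the kinase gene mek-1 rose by 0.58 ± 0.10, and the intestinal GATA factor gene elt-2 (-0.32 ± 0.07), the MAP kinase kinase gene sek-1 (-0.41 ± 0.10) and the protein kinase D gene dkf-2 (-0.26 ± 0.06) fell. Of the 12 galectins, a separate family of sugar-binding proteins, 2 rose and 2 fell in F4 mutants, and 3 rose and 2 fell in F5 mutants. Among them lec-8 rose by 0.27 ± 0.07 and 0.43 ± 0.07, and lec-10 fell (-0.26 ± 0.07 and -0.35 ± 0.07). In +/+ from wdr-5 no gene of the 4 lists was called in either generation (limma). The F4 mutant differences of these lists also depended on the birth day. The change between days was positive for 23 and negative for 2 of the 60 lysozymes, saposin-like proteins and antimicrobial peptides. It was so for 9 and 1 of the 25 infection response genes, 13 and 1 of the 44 regulators and 3 and 2 of the 12 galectins. Beside these stand 17.5% and 15.1% of all probe sets.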

How the data were processed

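Expression was measured on 35 arrays of L3 total RNA. The authors deposited normalized, log-transformed intensities, per the file headers, made with RMA, per the submitters' processing notes. The base of the log, the software version and the build are not given in the sources used here, and the deposited values were read as log2 from their range. The number of arrays limits the precision. Groups and birth days came from the labels. Members with deposited clec symbols were named through the reference gene table, 191 by accession, 42 by symbol and 1 by the deposited symbol alone.

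Differences were fitted with limma 3.58.1 (lmFit, eBayes with trend) under R 4.3.3 on all 20806 probe sets, with 6 groups and the birth day within generation (27 residual degrees of freedom). Changes between days used a mean for each group and day (23 degrees of freedom). Tests were two-sided with Benjamini-Hochberg adjustment, called at 0.05, and the code was tested on simulated data. Members and gene lists were chosen with earlier results of these data known. Named members were drawn from the 10 largest rises and falls for mutants against +/+ from +/+, and from the 5 largest or 5 smallest p elsewhere. They were also drawn from the brightest and most variable members and from up to 4 genes of each list. Not every member of these sets is named in the text. Further members are named where a count or a run of neighbours holds them, after their values were seen. Alternatives covered normalization, dim probe sets, trend, array weights, the day term, single days, generations fitted alone, a residual axis, repeated probe sets and leaving out each array. Leaving out the 3 arrays of lowest weight was chosen after seeing the data.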

Additional observations from a re-analysis of the deposited data

Results flagged for a closer look

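On values centred per generation and birth day, 18 of 414 sets of arrays held 1 array far from the rest of its group, and chance gives about 1 in 20. The gap to the nearest array, as a share of the group's range, was as follows. In F4 mutants, replicate 2 stood apart for clec-201 (0.762) and clec-63 (0.682). In F4 +/+ from wdr-5, replicate 2 did for clec-142 (0.635) and clec-41 (0.636), replicate 3 for clec-72 (0.764) and clec-98 (0.661), and replicate 1 for clec-88 (0.64). In F4 +/+ from +/+, replicate 3 did for clec-247 (0.811) and replicate 1 for clec-257 (0.678). In F5 mutants, replicate 6 did for clec-198 (0.752), and in F5 +/+ from wdr-5, replicate 5 for clec-98 (0.842). In F5 +/+ from +/+, replicate 3 did for clec-184 (0.731), clec-195 (0.77) and clec-28 (0.703), replicate 5 for clec-176 (0.692) and clec-83 (0.712), and replicate 6 for clec-186 (0.641) and the second probe set of clec-225 (0.667).

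By the test of the difference between birth days, the F4 mutant difference changed by 2.11 for clec-4, 1.37 for clec-5, 1.20 for clec-66, 0.78 for clec-186 and -3.56 for clec-88, and the F4 +/+ from wdr-5 difference by 0.57 for clec-184 and 0.39 for clec-176.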

How the results depend on the processing

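Counts are of members called in either direction. Leaving out 1 array gave 16 to 33 for F4 mutants against +/+ from +/+ (27 with all arrays, 16 without F4 mutant replicate 3), 40 to 53 for F5 mutants (51), 22 to 46 for F5 against F4 mutants (35, with 22 without F5 mutant replicate 6), 48 to 74 for the F4 mutant change between days (65), 0 to 14 for that of F4 +/+ from wdr-5 (2) and 0 to 1 for that of F5 mutants (0, and 1 without F5 mutant replicate 6). Without a birth day term the counts were 6 and 15 for F4 and F5 mutants against +/+ from +/+, 6 and 13 against +/+ from wdr-5, and 7, 8 and 0 for F5 against F4 in +/+ from +/+, +/+ from wdr-5 and mutants. Birth day 1 alone gave 71 and 33 for F4 and F5 mutants, 21 for F5 mutants against +/+ from wdr-5, 62 for F5 against F4 mutants and 1 for the F4 against F5 mutant difference, and birth day 2 alone gave 14 for F4 mutants against +/+ from wdr-5, 13 and 71 for F5 against F4 in +/+ from wdr-5 and mutants, and 29 for that difference. Array weights gave 52, 69 and 23 for the F5 against F4 comparisons, 15 for the F4 against F5 mutant difference, and 53 and 6 for the changes between days of F4 +/+ from wdr-5 and F5 mutants. The first residual axis gave 0 for both F4 changes between days. It gave 49 for F4 mutants and 57 for F5 against F4 in +/+ from wdr-5 and in mutants. For the F4 against F5 mutant difference it gave 15. Scores of F4 mutants along this axis were positive for replicates 1 to 3 (0.21 to 0.23) and negative for replicates 4 to 6 (-0.29 to -0.12). Those of F4 +/+ from +/+ had the opposite signs. The axis also split F5 mutants of the same day, with 0.35 for replicate 1 against -0.15 for replicates 2 and 3, and 0.21 for replicate 5 against -0.35 for replicate 6. Without the 3 arrays of lowest weight, the changes between days were 21 for F4 +/+ from wdr-5 and 7 for F5 mutants, and the F4 against F5 mutant difference 1. For F4 +/+ from wdr-5 that change was also 4 without a trend, 4 after quantile normalization and 6 without dim probe sets. For all of these settings the cause was not tested. Signs turned on 1 day alone for clec-184 in F4 +/+ from wdr-5 (0.0357, birth day 2), clec-191 in F5 against F4 +/+ from +/+ (0.0709, birth day 2), clec-197 (0.0538, birth day 2) and clec-246 (0.0248, birth day 1) in F5 against F4 mutants and clec-50 in F5 +/+ from wdr-5 (-0.0683, birth day 1), and without a day term for clec-2 in F5 +/+ from wdr-5 (0.0134).

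Replicate numbers do not pair the samples (same-number correlations of -0.295 to 0.317). With the replicate block the counts were 24 and 46 for F4 and F5 mutants against +/+ from +/+, 24 and 41 against +/+ from wdr-5, and 29, 37 and 36 for F5 against F4. Low signal limits what can be said of the 91 members that were dim on average.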
